A study of Mus musculus with 19 samples.

Results

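The T cell receptor (TCR) complex and its first signalling proteins were followed at the RNA level in regulatory T cells (Tregs) through 9 genes: Cd3d, Cd3e, Cd3g, Cd247, Cd4, Lck, Zap70, Lat and Lcp2. They were picked by symbol, with no measured value in the rule, from the 24982 genes of the deposited count table. All 9 had a row, and all 9 were among the 11464 genes that passed the filter on low counts. Bulk RNA-seq had been made from 50000 CD4+FoxP3-GFP+ Tregs per sample, sorted by FACS from the lymph nodes that drain the site of injury. Every group came from the Foxp3DTR strain, in which the Foxp3 gene drives a diphtheria toxin receptor fused to GFP, so that GFP marks Tregs, and the mice were 8 to 16 weeks old. Injured mice had 20% of the body surface in a bath of 90 °C for 9 seconds, uninjured mice were sham-treated, and cells were taken on day 7. Tregs of each kind of mouse were split by CD44, a surface protein that is high on antigen-experienced T cells. This gave 4 CD44high and 5 CD44low samples from uninjured mice, and 4 CD44high and 6 CD44low samples from injured mice. The labels do not say whether a sample held the cells of 1 mouse or of several, so the p-values measure the spread between samples only. The 6 injured CD44low samples include 3 with a second number (1_2, 4_2 and 5_2), which the labels do not explain, and all 6 were kept as separate samples.

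The TCR recognises peptide on MHC molecules but has no signalling domain of its own. Signals leave through the CD3 chains and the zeta chain, whose cytoplasmic tails carry the tyrosine motifs called ITAMs. The coreceptor CD4 brings the kinase LCK to the complex, LCK phosphorylates the ITAMs, ZAP-70 docks on them, and ZAP-70 then phosphorylates the adaptors LAT and SLP-76 (gene Lcp2), on which the enzymes of the next steps assemble. Tregs need TCR signals for their suppressive function.

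Library totals lay between 5582234 and 9433610 counts. Levels below are in CPM, that is, counts relative to the TMM-adjusted library total. Cd44 itself averaged 594.7 CPM in CD44high and 133 CPM in CD44low Tregs of uninjured mice, and 436 and 117 CPM in injured mice, on the side the labels give in every library. Foxp3 was read in all 4 groups, at group means between 70.7 and 115 CPM. Marker genes of other cells were also read. The 6 macrophage and dendritic cell markers summed to 65.1 to 137 CPM in CD44high and 20.4 to 38.8 CPM in CD44low libraries of uninjured mice, and to 82.8 to 228 and 33.1 to 146 CPM in injured mice, with none at 0 throughout a group. The 6 B cell markers summed to 72.2 to 209 CPM, and the 5 CD8 and NK cell markers to 48.7 to 78.2 CPM. Most of the second sum was Cd8b1, with group means of 41.9 to 47.0 CPM. The NK marker Klrb1c averaged 3.71 CPM in CD44high and 0.294 CPM in CD44low Tregs of uninjured mice, and 12.8 and 2.32 CPM in injured mice. Of the 5, 3 had a positive log2 fold change for CD44high Tregs in uninjured and 4 in injured mice. The 4 stromal markers summed to 59.3 to 114 CPM in CD44high and 135 to 230 CPM in CD44low libraries. Most of this sum was Pecam1, with group means of 60.8 CPM in CD44high and 202 CPM in CD44low Tregs of uninjured mice. In injured mice they were 97.9 and 193 CPM. Col1a1 went the other way, with 2.36 and 0.0568 CPM in uninjured and 1.50 and 0.263 CPM in injured mice, in the same order. Of the 2 stromal markers past the filter, 1 was called higher and 1 lower in CD44high Tregs in each kind of mouse. Among CD44low libraries 2 of the 4 stood at 0 throughout the uninjured group and 1 throughout the injured group. Neutrophil markers reached at most 1.69 CPM in uninjured and 28.9 CPM in injured mice, with 2 of the 4 at 0 throughout each group but injured CD44high. The part of these cells in the results below was not tested. In bulk samples, fewer cells of a type and less RNA per cell cannot be told apart.

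The 9 genes were strongly expressed in every library. The smallest count was 1039 reads, for Zap70, and the largest 17280, for Lck. Divided by exon length, as CPM per kilobase averaged over the 19 libraries, the order was Lck (557), Cd3d (396), Cd3e (350.0), Cd3g (298), Lat (197), Cd4 (194), Lcp2 (169), Cd247 (85.0) and Zap70 (71.0). Lck thus stood 41st of the 11350 tested genes with a known length, and Zap70 stood 754th. Neighbours in this order overlapped over the 19 libraries, as Cd3d and Cd3e did (306 to 566 against 310 to 393 CPM per kilobase), except Lcp2 and Cd247. Cd247, the zeta chain, had less RNA per length than each of the 3 CD3 chains.

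Cd3e was the steadiest, with a highest library 1.27 times its lowest, and Lat the most variable, at 2.19 times. The plot of CPM by library shows a wider spread among injured than uninjured samples in both subsets for all but Cd3e and Cd247. The spread of those 2 genes was narrower after injury in CD44high Tregs. Within the injured CD44low group, libraries 1, 2 and 5 had more Lck than 1_2, 4_2 and 5_2 (2136.5 to 2320.7 against 1661.4 to 1903.9 CPM). Lcp2 split the same way (737 to 836 against 569.9 to 660 CPM) and Zap70 the other way (194 to 249 against 254 to 269 CPM). The other genes overlapped between these sets, and the part of the sets in the spread was not tested.

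**Figure D1:**
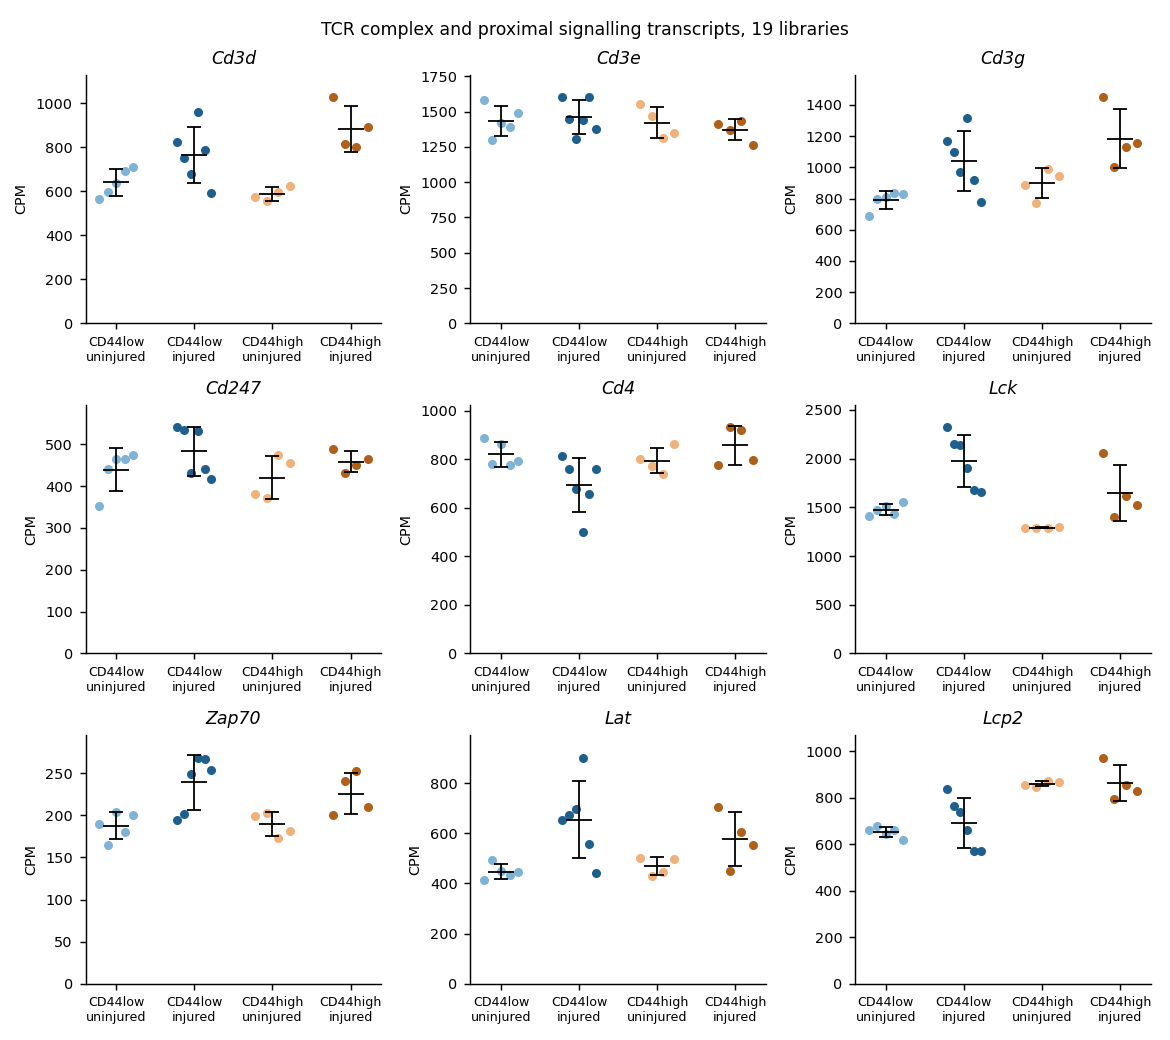
CPM (vertical axis, from 0, a scale of its own for each gene) of the 9 genes in the 19 libraries, by group. Each point is 1 library and bars give the mean ± SD. Lck was between 1284 and 1300 CPM in the 4 uninjured CD44high libraries and between 1661 and 2321 CPM in the 6 injured CD44low libraries.

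The CD3 genes are described first, and the promoters of 3 of them, Cd3g, Cd3d and Cd3e, which lie on the same chromosome, are shown. Whether their position has a part in their levels was not tested. In the RefSeq annotation of GRCm38.p6, Cd3g and Cd3d are transcribed away from each other from starts 1355 bases apart, and Cd3e starts 27825 bases beyond Cd3d. Capitals mark GGAAG or its reverse complement CTTCC, the core bound by ETS factors, in the 250 bases before each start, written 5′ to 3′ along the gene's own strand.
Cd3g, chr9:44980432-44980681, minus strand: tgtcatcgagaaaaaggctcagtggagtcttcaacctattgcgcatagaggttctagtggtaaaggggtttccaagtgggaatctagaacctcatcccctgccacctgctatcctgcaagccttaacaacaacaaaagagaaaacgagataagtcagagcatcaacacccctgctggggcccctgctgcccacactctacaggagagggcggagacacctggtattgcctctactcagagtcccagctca
Cd3d, chr9:44981536-44981785, plus strand: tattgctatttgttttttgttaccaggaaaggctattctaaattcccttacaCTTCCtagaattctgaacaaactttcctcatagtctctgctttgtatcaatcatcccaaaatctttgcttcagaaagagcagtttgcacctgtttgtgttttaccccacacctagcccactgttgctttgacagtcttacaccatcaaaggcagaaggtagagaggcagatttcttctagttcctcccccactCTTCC
Cd3e, chr9:45009612-45009861, minus strand: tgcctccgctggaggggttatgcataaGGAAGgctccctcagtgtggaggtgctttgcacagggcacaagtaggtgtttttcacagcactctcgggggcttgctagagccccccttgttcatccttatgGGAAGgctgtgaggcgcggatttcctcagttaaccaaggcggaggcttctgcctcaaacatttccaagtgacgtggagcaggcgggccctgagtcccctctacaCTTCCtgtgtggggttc
The ETS core was absent from the Cd3g stretch, occurred 2 times before Cd3d and 3 times before Cd3e. It was found in 64.1% of all 32851 promoters of the table searched the same way, on both strands. The sequence CAGGTG, an E-box searched on both strands, occurred 2 times before Cd3g, 1 time before Cd3d and not before Cd3e, and 17.2% of all promoters held it. A match describes the letters and was not read as a bound site.

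Cd3d encodes the CD3 delta chain, which pairs with CD3 epsilon. In uninjured CD44high Tregs its 4 libraries had 575, 554, 594 and 624 CPM, and in injured CD44high Tregs 1027, 813, 799 and 892 CPM. Every injured library exceeded every uninjured one. The difference was a log2 fold change of 0.59 ± 0.12 (SE), a factor of 1.50 (edgeR adjusted p = 0.00713). Cd3d was the only 1 of the 9 genes called higher after injury in CD44high Tregs, in a comparison where 2.38% of all genes tested were called. The call held in all 17 alternatives with an adjusted p, which ran from 0.000309 to 0.0328.

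In CD44low Tregs the Cd3d libraries had 565, 595, 638, 693 and 709 CPM without injury, and a lowest value of 591, a median of 768 and a highest of 959 CPM with it. These groups overlapped. The log2 fold change of 0.26 ± 0.10 (95% interval 0.042 to 0.47) did not pass the threshold (edgeR adjusted p = 0.120), but did without injured library 5_2, the lowest of that group (0.34, adjusted p = 0.0211). Between the subsets, Cd3d differed by -0.12 on the log2 scale in uninjured mice (interval -0.36 to 0.11) and by 0.21 in injured mice (interval -0.020 to 0.43), with overlapping libraries in both. The second passed only without injured CD44low library 1_2 among the single libraries left out (0.28, adjusted p = 0.0310).

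Cd3g encodes the CD3 gamma chain, the partner of a second CD3 epsilon chain. CD44high Tregs had 887, 769, 992 and 948 CPM without injury and 1450.1, 1003, 1129 and 1157 CPM with it. Here too the groups did not overlap. Of the 9 genes, 3 (Cd3d, Cd3g and Lck) did not overlap between these groups, as did 13.3% of all genes tested. At a log2 fold change of 0.40 ± 0.14 (interval 0.12 to 0.68), the difference missed the threshold (edgeR adjusted p = 0.135).

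CD44low Tregs had 690.2, 797, 807, 833 and 826 CPM of Cd3g without injury, and a lowest value of 776, a median of 1031 and a highest of 1319 CPM with it. Of the 6 injured libraries only 5_2 fell among the uninjured ones. Its log2 fold change of 0.40 ± 0.12 passed (edgeR adjusted p = 0.0403), as 1 of 4 genes called higher. In this comparison 7.6% of all genes tested were called, and 4.24% of all genes tested were called higher. The Cd3g call was close to the threshold. It was lost without uninjured library 1 (0.0824), 2 (0.0555) or 3 (0.0521), and without injured library 1 (0.0645), 2 (0.0524) or 1_2 (0.0961), as adjusted p, and with the compared groups alone (0.0679). Between the subsets, Cd3g differed by 0.18 (interval -0.080 to 0.45) in uninjured and by 0.19 (interval -0.068 to 0.44) in injured mice, neither past the threshold.

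Cd3e, the CD3 epsilon chain found in both CD3 pairs, lay between 1265 and 1603 CPM in all 19 libraries, and the 4 groups overlapped throughout. Its group means were 1422 ± 111 (SD, n = 4) in CD44high and 1436 ± 107 (SD, n = 5) in CD44low Tregs of uninjured mice. In injured mice they were 1371 ± 74.7 (SD, n = 4) and 1463 ± 120 (SD, n = 6). No comparison passed the threshold, and the 95% intervals bounded the log2 fold changes between -0.27 and 0.19 in the 4 comparisons.

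Cd247, the zeta chain, holds most of the ITAMs of the complex. It lay between 351 and 540 CPM. In CD44low Tregs it averaged 439.5 ± 50.8 (SD, n = 5) without and 483 ± 59.0 CPM (SD, n = 6) with injury, and in CD44high Tregs 420.4 ± 52.2 (SD, n = 4) and 459 ± 24.2 CPM (SD, n = 4), with overlapping libraries. The log2 fold changes were 0.14 (interval -0.070 to 0.34) and 0.13 (interval -0.11 to 0.36), and neither passed. No difference between the subsets passed either, with values of -0.064 and -0.074 in uninjured and injured mice.

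Cd4, the coreceptor by which these cells were also sorted, was the 1 gene of the 9 with a negative value after injury in CD44low Tregs. Its uninjured CD44low libraries had 889, 781, 861, 775 and 794 CPM. The injured ones had a lowest value of 501, in library 1_2, a median of 718 and a highest of 813 CPM. Of those 6, 5 lay below all uninjured libraries. With a log2 fold change of -0.24 ± 0.099 (interval -0.44 to -0.034), Cd4 did not pass the threshold (edgeR adjusted p = 0.130). In CD44high Tregs the values were 799.8, 773, 741 and 863 CPM without injury and 777, 931, 922 and 798 CPM with it, which overlap, and the difference was 0.11 (interval -0.13 to 0.35).

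Between the subsets, Cd4 was called higher in CD44high Tregs of injured mice, by 0.30 ± 0.11 in log2 fold change (edgeR adjusted p = 0.0265), with overlapping libraries. In uninjured mice the value was -0.047 ± 0.11 (interval -0.27 to 0.18). In this comparison of injured mice, 2 of the 9 genes were called, both higher, where 37.4% of all genes tested were called, and 0 of the 9 had groups that did not overlap, against 24.8% of all genes. The Cd4 call was lost without CD44high library 3 (0.0823) or 4 (0.0829) and without CD44low library 4_2 (0.0592), as adjusted p, with the compared groups alone (0.110) and with no filter on low counts (0.0536). Without the 3 samples that carry a second number the log2 fold change was 0.19 (adjusted p = 0.124). The test of whether the subset difference itself changed with injury gave 0.35 (interval 0.033 to 0.66) and did not pass (edgeR adjusted p = 0.392).

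For the kinases and adaptors, the promoters of Lck and Lat are shown, the 2 genes whose rise after injury in CD44low Tregs held in every alternative that kept the threshold. Lck has a distal and a proximal promoter, and the table lists a start for each.
Lck, first start, chr4:129573642-129573891, minus strand: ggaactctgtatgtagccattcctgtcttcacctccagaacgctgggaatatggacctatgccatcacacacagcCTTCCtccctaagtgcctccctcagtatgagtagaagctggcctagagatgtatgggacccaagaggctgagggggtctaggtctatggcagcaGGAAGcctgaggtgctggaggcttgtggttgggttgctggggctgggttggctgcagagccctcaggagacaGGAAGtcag
Lck, second start, chr4:129558373-129558622, minus strand: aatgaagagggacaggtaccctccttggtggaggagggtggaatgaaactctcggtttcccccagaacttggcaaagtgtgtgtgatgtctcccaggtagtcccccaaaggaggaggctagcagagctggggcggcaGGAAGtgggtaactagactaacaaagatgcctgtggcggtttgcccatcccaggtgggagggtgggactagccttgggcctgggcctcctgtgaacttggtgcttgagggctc
Lat, chr7:126369569-126369818, minus strand: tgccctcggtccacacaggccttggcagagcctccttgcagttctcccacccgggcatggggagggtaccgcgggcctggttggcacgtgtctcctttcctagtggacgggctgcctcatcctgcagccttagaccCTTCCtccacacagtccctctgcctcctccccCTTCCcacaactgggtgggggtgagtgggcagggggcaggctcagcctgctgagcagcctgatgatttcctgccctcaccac
The ETS core occurred 3 times before the first Lck start, of which the nearest began 9 bases upstream, 1 time before the second and 2 times before Lat. Over all listed starts, 8 of the 9 genes matched the table with 11 starts, and 9 of these held the core, against the 64.1% of all promoters. The E-box CAGGTG was in 6 of the 11, the sequence TGTGGT bound by RUNX factors in 2 (14% of all promoters), the GATA sequence AGATAA in 2 (9.99%) and the TATA box TATAAA in 0 (12.4%). Starts of 1 gene are not independent, and Cd4 had no entry.

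Lck encodes the kinase that starts the cascade. In CD44low Tregs its libraries had 1407, 1475, 1514, 1436 and 1554 CPM without injury, and a lowest value of 1661, a median of 2020 and a highest of 2321 CPM with it. No injured library came down to the level of an uninjured one, a separation that 4.68% of all genes tested showed in either direction. This was a log2 fold change of 0.42 ± 0.097, a factor of 1.34 (edgeR adjusted p = 0.0122). It stayed under the threshold in all 20 alternatives with an adjusted p, the highest being 0.0396.

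In CD44high Tregs Lck had 1291, 1284, 1289 and 1299.7 CPM without injury and 2059.7, 1400.4, 1618 and 1521 CPM with it. The 4 uninjured libraries lay close together and below all injured ones. Its difference of 0.35 ± 0.11 (interval 0.12 to 0.59) missed the threshold (edgeR adjusted p = 0.107). It passed on these 2 groups alone (0.0495), without the 3 samples with a second number (0.0249) and with libraries 1 and 1_2 and libraries 5 and 5_2 summed (0.0452).

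Between the subsets, Lck was lower in every CD44high than in every CD44low library of uninjured mice. Of all genes tested, 40.7% showed such a separation in either direction. The log2 fold change was -0.19 ± 0.11 (interval -0.42 to 0.028, edgeR adjusted p = 0.145) in the fit that shares 1 estimate of spread over all 4 groups. With the compared groups alone it was -0.20 and was called (edgeR adjusted p = 0.0065). In injured mice it was -0.26 ± 0.10 (interval -0.48 to -0.046, adjusted p = 0.0517) with overlapping libraries. That value lay at the threshold. It passed without CD44high library 2 (-0.41, 0.00266) and without CD44low library 1_2 (-0.27, 0.0484), 4_2 (-0.31, 0.0250) or 5_2 (-0.31, 0.0214). It passed as well without all 3 samples with a second number (-0.42, 0.00211). It also passed with DESeq2 (0.0349) and with RLE factors (0.0395).

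Zap70 encodes the kinase that docks on phosphorylated ITAMs. CD44low Tregs had 189, 164, 204, 181 and 201 CPM without injury, and a lowest value of 194, a median of 251 and a highest of 269 CPM with it. Injured libraries 1 and 2 lay among the uninjured ones and the other 4 above them. Zap70 was higher by 0.35 ± 0.10 in log2 fold change (edgeR adjusted p = 0.0377). The call was lost without uninjured library 1 (0.0518), 2 (0.0709) or 4 (0.0556) or injured library 1_2 (0.0776), as adjusted p, and with the compared groups alone (0.0807). Without the 3 samples with a second number it was 0.20 (adjusted p = 0.220).

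CD44high Tregs had 199.5, 203, 173 and 182 CPM of Zap70 without injury and 201, 241, 252 and 209.99 CPM with it, with 1 injured library among the uninjured ones. This gave 0.26 ± 0.12 (interval 0.014 to 0.50, edgeR adjusted p = 0.299). The subsets differed by 0.011 in uninjured and by -0.081 in injured mice, with intervals of -0.22 to 0.24 and -0.30 to 0.14.

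Lat encodes the membrane adaptor on which the signal branches, and it had the largest log2 fold change of the 9 genes after injury in CD44low Tregs. There it had 413, 495, 449, 434 and 447 CPM without injury, and a lowest value of 442, a median of 664 and a highest of 903 CPM with it. Of the injured libraries, 5_2 lay among the uninjured ones and the other 5 above them. Lat rose by 0.55 ± 0.13 in log2 fold change, a factor of 1.46 (edgeR adjusted p = 0.0156), and the adjusted p stayed between 0.00125 and 0.0493 in 20 alternatives.

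In CD44high Tregs Lat had 499.9, 431, 444 and 498.5 CPM without injury and 707, 449.5, 604 and 553 CPM with it, with injured library 3 among the uninjured ones. The difference of 0.30 ± 0.15 (interval -0.014 to 0.62) did not pass (edgeR adjusted p = 0.356). Between the subsets Lat differed by 0.065 (interval -0.24 to 0.37) in uninjured and by -0.18 (interval -0.47 to 0.11) in injured mice.

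Lcp2 encodes SLP-76, the cytosolic adaptor that joins LAT through GADS, and it was the 1 gene of the 9 that differed between the subsets by call in both kinds of mice. Uninjured CD44high Tregs had 855, 847, 871 and 867 CPM, against 662, 676, 645, 659 and 618 CPM in CD44low Tregs. The groups did not overlap. The log2 fold change was 0.40 ± 0.10, a factor of 1.32 (edgeR adjusted p = 0.00256). Lcp2 was the only 1 of the 9 called in this comparison, in which 46.1% of all genes tested were called. No other of the 9 had an unadjusted p under 0.05 there, while 6032 of all 11464 genes tested did. DESeq2 also called 1 of the 9.

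In injured mice the CD44high libraries had 972, 793, 853 and 828 CPM of Lcp2, and the CD44low libraries a lowest value of 569.9, a median of 699 and a highest of 836 CPM. These groups overlapped through injured CD44low library 1. The log2 fold change was 0.32 ± 0.097 (edgeR adjusted p = 0.0118). It fell to 0.23 without CD44high library 2 (adjusted p = 0.0862) and to 0.15 without the 3 samples with a second number (adjusted p = 0.184), and it missed the threshold with the compared groups alone (0.0710). Injury itself changed Lcp2 by 0.0025 in CD44high (interval -0.22 to 0.22) and by 0.081 in CD44low Tregs (interval -0.11 to 0.27).

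The plot of fold changes sets the 4 comparisons side by side. They share groups with each other, so their values are not independent. The median log2 fold change of the 9 genes was 0.26 after injury in both subsets, against -0.021 for all genes tested in CD44high and 0.0077 in CD44low Tregs. After injury 8 of the 9 values were positive in each subset, the exceptions being Cd3e in CD44high and Cd4 in CD44low Tregs. Of all 11464 genes tested, 5391 were positive in CD44high and 5833 in CD44low Tregs. Several of the 9 were correlated over the libraries, so their signs are not independent. Between the subsets the median size of the log2 fold change, without its sign, was 0.066 in uninjured mice against 0.44 for all genes tested, and 0.19 against 0.36 in injured mice. At a stricter threshold, a p under 1e-06 with a 2-fold change, 0 of the 9 genes were called in each comparison. Of all genes tested, 8.3% and 6% passed it between the subsets in uninjured and injured mice, 0.148% and 0.122% after injury in CD44high and CD44low Tregs, and 0.0872% in the interaction.

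**Figure D2:**
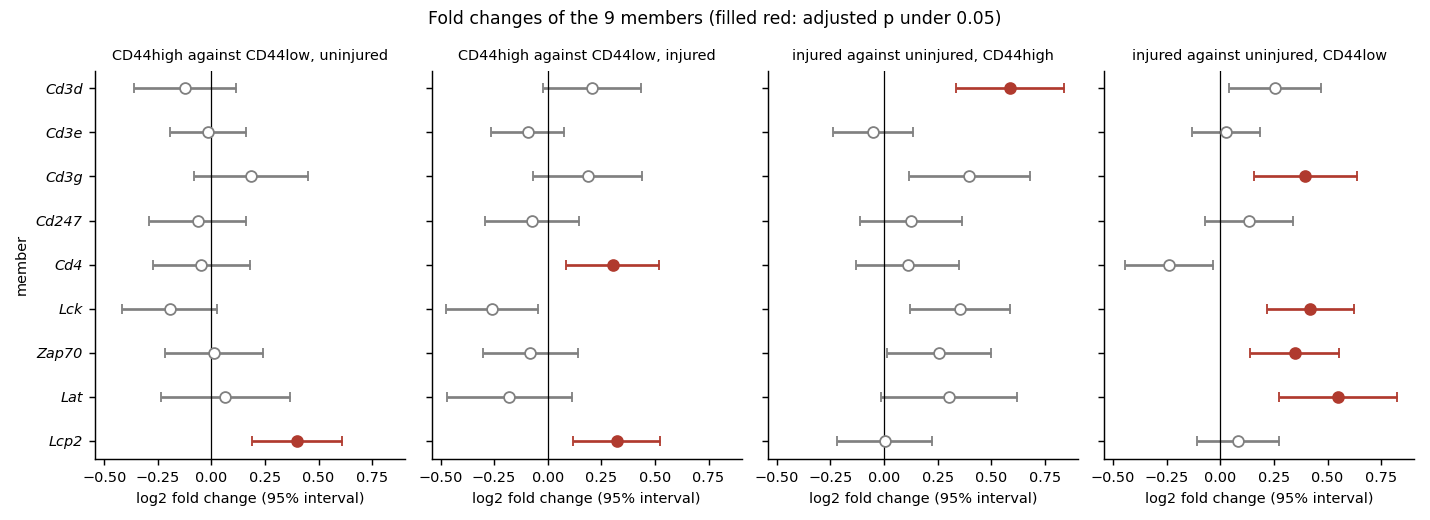
Log2 fold change (horizontal axis) of the 9 genes in the 4 comparisons, with the 95% interval of edgeR's fit. Filled red points have an adjusted p under 0.05: Lcp2 in uninjured and Cd4 and Lcp2 in injured mice between the subsets, Cd3d after injury in CD44high and Cd3g, Lck, Zap70 and Lat after injury in CD44low Tregs.

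Whether injury acted differently in the 2 subsets was tested directly. None of the 9 genes passed (0 of 9 by edgeR and 0 of 9 by DESeq2), in a test that called 0.645% of all genes. An unadjusted p under 0.05 was found for 1247 of all 11464 genes tested and for 2 of the 9. These were Cd3d, with a difference between the subsets of 0.33 on the log2 scale (interval 0.0028 to 0.66, edgeR adjusted p = 0.450), and Cd4. The calls made in 1 subset and not in the other were thus not shown to differ between them. For Lck the difference was -0.066 (interval -0.37 to 0.24), for Zap70 -0.092 (interval -0.41 to 0.23), for Lat -0.24 (interval -0.66 to 0.17) and for Cd3g 0.0018 (interval -0.37 to 0.37).

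The other genes of the pathway, 60 by a list that holds none of the 9, were read in 57 cases, all past the filter. The genes of the TCR alpha and beta constant regions were not analysed here. Between the subsets, in uninjured mice 17 were higher and 19 lower in CD44high Tregs, beside 24.7% and 21.3% of all genes tested, and in injured mice 14 were higher and 19 lower, beside 20.1% and 17.2%. Their median size of change was 0.51 and 0.37 in log2 fold change, against 0.44 and 0.36 for all genes.

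Of 16 partners of LAT and SLP-76, 10 were called lower and 2 higher in CD44high Tregs of uninjured mice, where 21.3% and 24.7% of all genes tested were. In injured mice 10 were lower and 1 higher, beside 17.2% and 20.1%, and the direction of the group was not tested. Txk, a TEC-family kinase, averaged 39.5 ± 8.89 CPM (SD, n = 4) in CD44high and 131 ± 16.2 CPM (SD, n = 5) in CD44low Tregs of uninjured mice, with no overlap. It differed by -1.73 ± 0.15 (edgeR adjusted p = 2.03e-09), and -1.17 in injured mice (adjusted p = 6.3e-07). Themis, a protein that tunes TCR signal strength, differed by -1.48 in uninjured mice (adjusted p = 2.02e-08), and Grap2, which encodes the GADS link between LAT and SLP-76, by -1.14 in injured mice (adjusted p = 5.18e-06). Prkcq, the kinase PKC theta that leads to NF-kB, differed by -0.93 and -0.49.

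Genes that hold the signal back moved both ways. Of 14, 6 were called higher and 4 lower in CD44high Tregs in each kind of mouse. Of all genes tested, 24.7% were called higher and 21.3% lower in uninjured mice, and 20.1% and 17.2% in injured mice. Ubash3b, a phosphatase that acts on ZAP-70 (also called Sts-1), averaged 225 ± 6.91 CPM (SD, n = 4) in CD44high and 77.5 ± 12.1 CPM (SD, n = 5) in CD44low Tregs of uninjured mice, without overlap. This was a log2 fold change of 1.54 ± 0.11 (edgeR adjusted p = 3.84e-11), and 0.96 in injured mice. Sla, an adaptor that promotes loss of the receptor complex, differed by 0.74 and 0.97, and the related Sla2 by 0.83 in injured mice. Map4k1, the kinase HPK1 that targets SLP-76, differed by 0.76 in uninjured mice, and Lax1, an adaptor, by 0.75 in injured mice. Dgka, which removes the lipid messenger diacylglycerol, went the other way, by -1.07 (adjusted p = 5.3e-09) and -0.69 (adjusted p = 3.18e-06).

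Among the genes that control SRC-family kinases, Unc119, which activates LCK and FYN, was the largest difference, at 1.82 ± 0.13 in uninjured (edgeR adjusted p = 9.13e-11) and 1.54 in injured mice. Lat2, which encodes NTAL, the LAT relative of B and myeloid cells, averaged 26.1 ± 2.87 CPM (SD, n = 4) in CD44high and 2.03 ± 1.01 CPM (SD, n = 5) in CD44low Tregs of uninjured mice. The difference was 3.67 ± 0.34 in log2 fold change (adjusted p = 6.04e-09), in the same libraries in which the macrophage and dendritic cell markers were also higher. The part of such cells in the Lat2 value was not tested.

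After injury, in CD44high Tregs 5 of the 57 were called higher and 1 lower, beside 1.06% and 1.33% of all genes tested. Lax1 rose by 0.85 ± 0.12 in log2 fold change (edgeR adjusted p = 0.000284), from a mean of 101 ± 6.61 to 181 ± 15.3 CPM (SD, 4 libraries each). Sla rose by 0.50 ± 0.094 (adjusted p = 0.00342), Ptpn6, the phosphatase SHP-1, by 0.51 ± 0.12 (adjusted p = 0.0171), Fyn, the second SRC kinase of T cells, by 0.40 ± 0.10 (adjusted p = 0.0369) and Tespa1 by 0.56 ± 0.15 (adjusted p = 0.0412). Ubash3b fell by 0.58 on the log2 scale (adjusted p = 0.00415), from 225 ± 6.91 to 150.3 ± 8.15 CPM, with no overlap. Of these calls, 3 were lost in fits with 1 library left out. In those fits the calls among all genes fell from 273 to between 152 and 215. Fyn lost its call whichever of the 8 libraries was left out, with adjusted p up to 0.138. Its log2 fold change stayed between 0.35 and 0.43. Tespa1 lost it without uninjured library 3 (0.0622), 4 (0.132) or 5 (0.124) or injured library 2 (0.130), 3 (0.0850) or 5 (0.0745), and Ptpn6 without uninjured library 5 (0.0615) or injured library 2 (0.0747) or 5 (0.0576).

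In CD44low Tregs 8 of the 57 were called higher after injury and 2 lower, beside 4.24% and 3.36% of all genes tested. Ptpn22, the phosphatase PEP that acts on LCK and ZAP-70, rose by 0.52 ± 0.092 (edgeR adjusted p = 0.0019), Dok2, an adaptor that recruits RasGAP, by 0.58 ± 0.11 (adjusted p = 0.00343), Unc119 by 0.57 ± 0.12 (adjusted p = 0.00846) and Ptpn6 by 0.43 ± 0.099 (adjusted p = 0.0113). Trat1, a transmembrane adaptor of the TCR complex, rose by 0.41 ± 0.11 (adjusted p = 0.0213). Rasgrp1, which activates RAS downstream of LAT, fell by 0.58 on the log2 scale (adjusted p = 0.0193), from 622 ± 53.0 CPM (SD, n = 5) to 415 ± 102 CPM (SD, n = 6), without overlap. Malt1, the protease of the complex that activates NF-kB, fell by 0.50 (adjusted p = 0.0250). Rasgrp1 lost its call without uninjured library 1 (0.0602) or injured library 1 (0.0518). Malt1 lost it without uninjured library 1 (0.0713), 2 (0.0538) or 5 (0.0642) or injured library 1 (0.0670), 5 (0.0538) or 1_2 (0.0515). Malt1 has 18040 exon bases, and with the trend on exon length taken out, an analysis chosen after the data were seen, its log2 fold change was -0.22 (adjusted p = 0.150), not called. Trat1 lost its call with the compared groups alone (adjusted p = 0.0604). None of the 57 passed the test of a difference in injury effect between the subsets by edgeR, while DESeq2 called 5. By edgeR 11 of them had an unadjusted p under 0.05, beside 1247 of all 11464 genes tested.

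**Figure D3:**
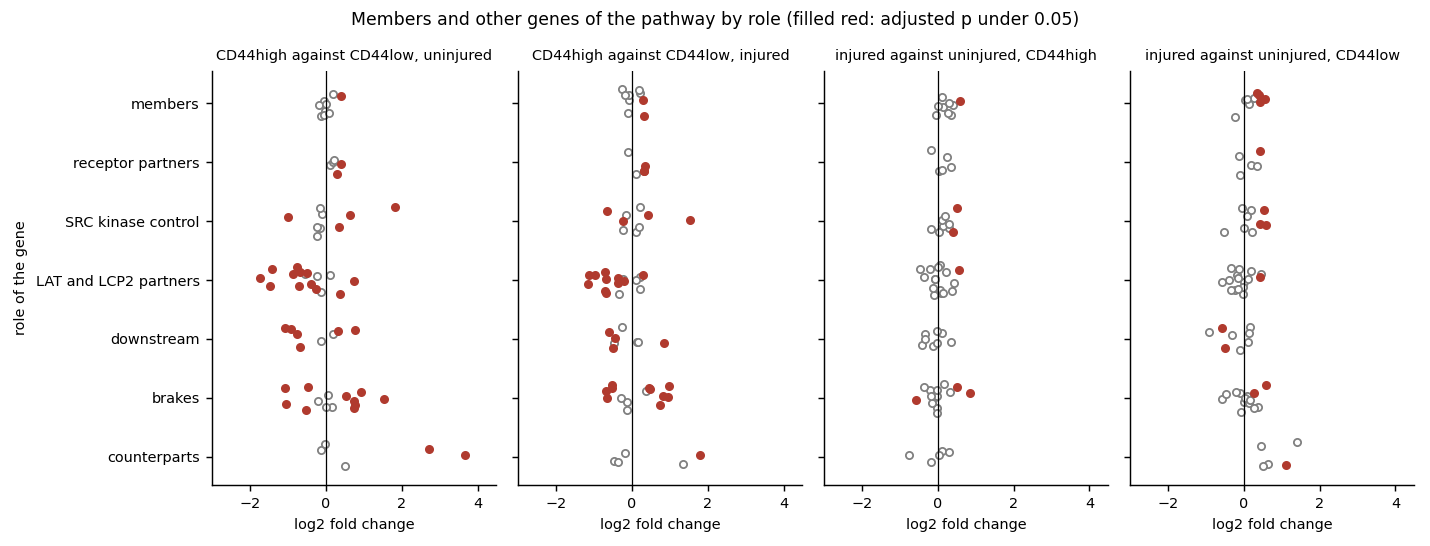
Log2 fold change (horizontal axis) of the 9 genes (top row, named members) and of the 57 other genes of the pathway by role, in the 4 comparisons. Vertical scatter within a row has no meaning, and filled red points have an adjusted p under 0.05. The 9 genes lay between -0.26 and 0.40 between the subsets, while the partners of LAT and LCP2 reached -1.73.

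The 9 genes did not vary as 1 block over the libraries. The following correlations are of log2 CPM over the 19 libraries, which share their groups and their depth, and are given as descriptions. Cd3d and Cd3g had r = 0.872, and 0.870 after the group means were taken out. Cd3g and Lat had 0.821 and 0.845, and Lck and Lat 0.789 and 0.647. Cd3e had no r above 0.15 with another of the 9 over the 19 libraries. Lck and Lcp2 had -0.029 over all libraries but 0.885 within groups. Cd4 ran against Lat, with -0.598 and -0.552.

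The gene most like each of the 9 over the 19 libraries was sought among the 11464 genes tested, with the 9 themselves left out. It was Ndufa3 for Cd3d (r = 0.918), Dnajc30 for Cd3e (0.763), Mea1 for Cd3g (0.951), Cfdp1 for Cd247 (0.897) and Cul4b for Cd4 (0.854). For Lck it was Cct3 (0.954), for Zap70 Tmbim6 (0.801), for Lat Plekhj1 (0.952) and for Lcp2 Alg8 (0.945). None of these genes is on the pathway list. Cd3e had the lowest of these 9 values.

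A property of the libraries moved with several of the 9 genes. In each library, the deviation of a gene from its mean over libraries was correlated with the gene's exon length across 11350 genes, which are not independent. This rho ran from -0.367, where short genes read high, to 0.300, where they read low. It was 0.166 to 0.300 in uninjured CD44low and -0.126 to -0.0532 in uninjured CD44high libraries, and spread from -0.300 to 0.276 in injured CD44low and from -0.367 to 0.0156 in injured CD44high libraries. The fold changes after injury in CD44low Tregs followed it the most, with rho = -0.341 between log2 fold change and exon length over genes. Cd3d has the shortest exons of the 9 (1815 bases, against a median of 4429.5 over the genes tested) and Cd247 the longest (5329 bases).

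The levels of Cd3d and Cd3g followed this trend within groups, with r = -0.901 for each over the 19 libraries. It was -0.799 for Lat, -0.664 for Cd247, -0.549 for Lck, -0.456 for Lcp2, -0.177 for Cd3e, 0.312 for Zap70 and 0.600 for Cd4. Injured library 1_2 of the CD44low group, with the lowest rho of that group, had its highest Cd3d, Cd3g and Lat and its lowest Cd4, and injured library 5_2, with the highest rho, its lowest Cd3d, Cd3g and Lat. The plot of the CD3 genes beside the trend shows this for Cd3d and Cd3g, and its absence for Cd3e.

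**Figure D4:**
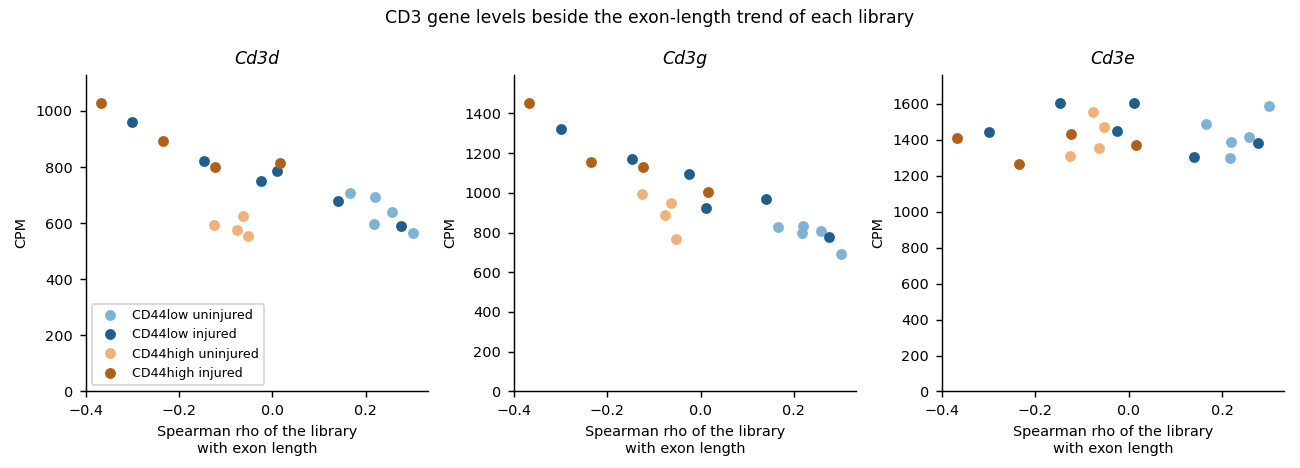
CPM (vertical axis, from 0) of Cd3d, Cd3g and Cd3e in the 19 libraries against the Spearman rho between each library's deviations and exon length (horizontal axis). Points are libraries, coloured by group. Cd3d and Cd3g read highest in the libraries at the left, where rho was as low as -0.367, while Cd3e stayed between 1265 and 1603 CPM throughout.

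The tests were repeated with a robust trend on length taken out of each library, an analysis chosen after the data were seen. After injury in CD44high Tregs Cd3d kept its call, at a log2 fold change of 0.48 (edgeR adjusted p = 0.0010). In CD44low Tregs Lck (0.34, adjusted p = 0.0161), Lat (0.45, adjusted p = 0.0148) and Cd3g (0.33, adjusted p = 0.0413) kept theirs, and Zap70 did not (0.28, adjusted p = 0.113). Between the subsets Lcp2 kept both calls (0.38 and 0.32), and Cd4 kept its call in injured mice (0.28, adjusted p = 0.0338). Lck was then called lower in CD44high Tregs of uninjured mice (-0.31, adjusted p = 0.00817) and of injured mice (-0.33, adjusted p = 0.00517), and Cd3d lower in uninjured mice (-0.23, adjusted p = 0.0160). A first version, with an uncentred least-squares trend, also moved the median log2 fold change of all genes between the subsets, from 0.0091 to -0.149 in uninjured and from -0.00049 to -0.12 in injured mice. There it called 5 and 4 of the 9 genes, all lower, and lost Lcp2 in both and Cd4 in injured mice.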

How the data were processed

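The authors deposited raw counts of reads per gene for 19 bulk RNA-seq libraries of sorted mouse Tregs, made with STAR through the VIPER workflow from Smart-Seq cDNA, with no normalization and with replicates kept apart. The submitters' processing notes name bcl2fastq 2.18, STAR 2.5 and the builds mm9 and mm10 without saying which build the counts used. All columns were mapped to a sample by label. Reads carry no molecular identifiers. Use of strand in counting: not given in the sources used here.

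Counts were analysed in R 4.3.3 with edgeR 4.0.16 and limma 3.58.1, and in DESeq2 1.42.0 as an alternative. Figures used Python 3.11.15 and matplotlib 3.10.9. Low genes were removed by edgeR's filter (minimum count 10), libraries were scaled with TMM, and 1 mean per group was fitted to all 19 libraries without covariates. The 4 comparisons and the interaction were tested with edgeR's quasi-likelihood test (two-sided) and Benjamini-Hochberg adjustment over 11464 genes, and a gene was called at an adjusted p under 0.05. Intervals are at 95%. Log2 CPM used a prior count of 2. Exon lengths are unions of GENCODE vM21 exons, matched by symbol for all 9 genes. The length trend was a robust loess with a span of 0.3. The tests were also run on simulated counts with known changes. Those counts had 1 spread per gene for all groups and no trend on exon length, so they do not cover these properties of the data.

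The 9 genes, the pathway and marker lists and the rule for names were chosen with earlier results of these data known. The rule named the 9 genes throughout, up to 5 pathway genes of smallest p per direction and comparison, and the 1 gene most like each of the 9. A gene that it also named is counted with the pathway but not reported here by name. Markers of gamma-delta T cells and the TCR constant regions were not analysed here, nor were the authors' other experiments. Alternatives were DESeq2, RLE factors, no filter, the compared groups alone, replicate blocks, the samples with a second number left out or summed, the paper's threshold, and each library left out. The 2 length trends were added after seeing the data.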

Additional observations from a re-analysis of the deposited data

Results flagged for a closer look

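In groups of 4 to 6 libraries, a library was flagged where its gap to the nearest other took up more of the group's range than Dixon's 95% critical value allows. Of 120 groups examined for the 9 genes and the named pathway genes, 5 were flagged, and chance flags about 1 in 20. Uninjured CD44low library 1 was the low value in 3 of them, with 690.2 CPM of Cd3g (next 797 CPM), 351 CPM of Cd247 (next 441 CPM) and 48.5 CPM of Sla2 (next 70.1 CPM). This library also had the highest rho with exon length of all 19, 0.300, and the part of that trend in these values was not tested. Uninjured CD44high library 3 had 97.0 CPM of Trat1 (next 114 CPM). Injured CD44high library 4 had 549.7 CPM of Dgka, above the next at 497.5 CPM.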

How the results depend on the processing

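Of the 9 genes, Cd3d after injury in CD44high and Lat and Lck after injury in CD44low Tregs kept their calls in every alternative except the paper's threshold, at which 0 of the 9 were called in each comparison. That threshold left 7, 3, 0 and 0 pathway genes and 951, 688, 17 and 14 of all genes in the 4 comparisons (uninjured and injured subsets, then injury in CD44high and CD44low), and 10 for the interaction. The number of the 9 called in uninjured subsets (1) became 2 with the compared groups alone, 3 with the robust and 5 with the uncentred length trend. In injured subsets (2) it became 1 with no filter or without the samples with a second number, 0 with the compared groups alone and 4 with the uncentred trend. There it became 3 with DESeq2, RLE factors, the replicate block within injured or uninjured mice or the robust trend. After injury in CD44high (1) it became 3 with the compared groups alone or without the second-number samples, and 2 with libraries summed. After injury in CD44low (4) it became 2 with the compared groups alone or the uncentred trend.

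The labels share replicate numbers, but samples of the same number did not all deviate together (r from -0.00685 to 0.119 in uninjured and -0.0537 to 0.167 in injured mice), and no source says that a number marks 1 mouse. With a replicate block by number, 1 of the 9 was called in injured subsets and 2 after injury in CD44low, with 5 pathway genes and 440 genes in all there. It ended the calls of Cd4 in injured subsets (adjusted p = 0.0819), of Fyn after injury in CD44high (0.0620) and of Cd3g (0.116), Zap70 (0.0525), Trat1 (0.0551) and Malt1 (0.0605) after injury in CD44low. With the block within injured or uninjured mice, Cd3g (0.37, adjusted p = 0.00950) and Cd3d (0.34, adjusted p = 0.0221) were called higher in CD44high Tregs of injured mice, and Cd4 was not called (0.22, adjusted p = 0.247). The block by number turned Cd3e in uninjured subsets to 0.0071 (0.021 within injured or uninjured mice), Lcp2 after injury in CD44high to -0.0024, Cd247 to 0.0045 in the interaction and, with the block within injured or uninjured mice, Cd247 to 0.024 and Lat to 0.039 in injured subsets.

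Pathway genes called after injury were 10 in CD44high and 20 in CD44low without the second-number samples and 6 in CD44low with the compared groups alone. In the interaction they were 5 with DESeq2, 3 without the second-number samples, 2 with libraries summed or the robust trend, and 1 with no filter or the uncentred trend. All genes called after injury in CD44high (273) became 479 with DESeq2, 601 with the compared groups alone, 581 without the second-number samples and 476 with libraries summed. In CD44low (871) they became 1460 with DESeq2, 463 with the compared groups alone and 1748 without the second-number samples, and for the interaction (74) 212 with DESeq2 and 314 without those samples. The uncentred trend moved the share of calls that were higher from 53.7% to 38.8% in uninjured and from 53.9% to 38.4% in injured subsets.

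Some values changed sign, none of them called on either side except Zap70 in uninjured subsets. Not all were near 0 in the main fit. Cd3g stood there at 0.18 in uninjured subsets, and Cd3d at 0.21 and Cd3g at 0.19 in injured subsets. With the robust trend the values that changed sign were Zap70 (-0.10) and Lat (-0.066) in uninjured subsets. With the uncentred trend they were Cd3g (-0.12), Zap70 (-0.30, adjusted p = 0.0387) and Lat (-0.25) in uninjured subsets, Cd3d (-0.034) and Cd3g (-0.018) in injured subsets, Cd3e after injury in CD44low (-0.013), and Cd3e (0.00090), Cd247 (0.022), Lck (0.027) and Zap70 (0.0047) in the interaction. Without the second-number samples Zap70 turned to 0.072 in injured subsets and to 0.061 in the interaction, and Cd3g to -0.047 in the interaction. Lcp2 after injury in CD44high became -0.00015 with DESeq2 and -0.00086 with RLE factors, and Cd3g in the interaction -0.017, -0.018 and -0.0087 with DESeq2, RLE factors and no filter. The cause was not tested.

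With each library left out in turn, the number of the 9 called ran from 1 to 4 in injured subsets (1 without CD44high library 3 or 4, 4 without CD44low library 1_2) and from 2 to 5 after injury in CD44low (2 without uninjured library 1 or 2 or injured library 1_2). Pathway calls ran from 3 to 5 after injury in CD44high (3 without uninjured library 5 or injured library 2 or 5), 5 to 21 in CD44low (21 without injured library 5_2, 5 without uninjured library 1) and 0 to 2 in the interaction. All calls ran from 152 (without injured CD44high library 5) to 215, 510 to 1893 (without the same 2 libraries) and 43 (without injured CD44high library 5) to 110. Sign changed for Cd3e (-0.073 to 0.024) and Zap70 (-0.041 to 0.053) in uninjured subsets, Cd3e (-0.089 to 0.0059) and Lcp2 (-0.050 to 0.042) after injury in CD44high, and Cd3g (-0.12 to 0.081), Cd247 (-0.076 to 0.056) and Lck (-0.20 to 0.0058) in the interaction.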
